A study of Mus musculus with 6 samples.

Results

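The vacuolar proton pump and the ion channels of the lysosome were followed in RAW264.7 cells kept in low or normal sodium. Members were all genes whose symbol in the platform annotation begins with Atp6v or Atp6ap, together with Tcirg1, Clcn3 to Clcn7, Ostm1, Mcoln1 to Mcoln3, Tpcn1, Tpcn2 and Tmem175. A total of 35 such genes, out of 18193 genes on the array, had a probe set assigned to that gene alone, and the probe set with the largest mean log2 intensity stands for each gene. The pump genes Atp6v0c and Atp6v1g3 were not analysed here. RAW264.7 cells come from a mouse macrophage tumour and can turn into osteoclast-like cells when given RANKL, the cytokine that drives osteoclast formation. The low-sodium group (3 arrays) had medium with sodium at 120 mmol/l, made by diluting the normal medium with a sodium-free mixture and adding mannitol to hold the osmolality at 290 mOsm/l. The normal-sodium group (3 arrays) had medium with sodium at 137 mmol/l. Treatment lasted 24 hours. The labels name RANKL (30 ng/ml) and the growth factor M-CSF (10 ng/ml) with the low-sodium medium, and their wording does not settle whether the normal-sodium cells had them too. If they did not, sodium and cytokines cannot be told apart here. The labels state 4 biological replicates per medium, of which 3 per medium were analysed here.

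The vacuolar ATPase is a rotary pump that acidifies endosomes and lysosomes. Its V1 sector in the cytosol splits ATP and turns a rotor, and its V0 sector in the membrane carries protons across. Osteoclasts also place the pump in the ruffled border, the membrane that faces bone, where acid dissolves mineral. Many subunits exist as several isoforms. The a3 subunit, made from Tcirg1, and the d2 subunit, made from Atp6v0d2, are the forms known for osteoclasts, whereas others are found in nearly all cells or mainly in kidney, brain or testis. The exchanger encoded by Clcn7 works with its partner Ostm1 to bring chloride in as protons are pumped, and the cation channels of the TRPML (Mcoln), two-pore (Tpcn) and Tmem175 families let calcium, sodium, potassium or protons leave the lumen.

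Both replicate 3 arrays stood apart from the others. Spiked labelling controls averaged log2 intensities of 8.50 in low and 8.54 in normal sodium there, against 10.19 to 10.45 on the other 4 arrays, so replicate 3 is treated as a batch with 1 array of each medium and differences are also given by replicate number. Array values are log2(intensity + 1) throughout. The 3′ minus 5′ difference of the spiked dap control was 3.28 in low and 2.93 in normal sodium on replicate 3, against 1.22 to 1.46 on the other arrays. That of the cells' own Actb transcript was 0.08 and 0.09 there, against 0.20 to 0.29, and that of Gapdh ran from -0.36 to -0.22 on the 6 arrays. The labelled macrophage line was checked against marker genes. All 7 macrophage markers were above the median of all probe sets, with a summed linear intensity of 103976 to 115584 in low and 97759 to 103826 in normal sodium. In the batch-term fit described below, 2 of the 7 rose and 0 fell. Of all genes 3.78% were called higher, and of genes at or above that median 6.24%, and 7 markers are too few to compare with these shares. Those that rose were Adgre1, the F4/80 surface protein (0.96 ± 0.10, SE, adjusted p = 0.0032 in limma), and Fcgr3, an Fc receptor (0.90 ± 0.09, adjusted p = 0.00308). In the planned limma test, also described below, their adjusted p were 0.543 and 0.698, and the groups of Fcgr3 overlapped. By values 6 of the 7 were higher and Csf1r was lower, with separate groups (-0.10, -0.09 and -0.29 by replicate number), but did not pass. A part of these markers in the pump values was not tested. Of 9 osteoclast markers 2 (Calcr and Itgb3) were below that median, and their sum was 2359 to 5741 in low and 2287 to 2778 in normal sodium. All 4 measured lymphocyte markers, 3 of 5 stromal markers and 2 of 3 endothelial markers were below it as well.

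The comparison was read in a pair of fits. In the planned limma test, without a batch term, 0 of 35 members passed an adjusted p of 0.05 and 8 had an unadjusted p under 0.05, where 1 of all genes passed (0.0055%) and 8.15% had an unadjusted p under 0.05. Among the 10880 genes whose probe set reached the median of all probe sets, the brighter genes, these shares were 0.00919% and 9.04%. In a limma fit with a term for the batch and a trended variance prior, called the batch-term fit below, 10 members were higher in low sodium, 0 were lower and 25 did not pass, against 3.78% of all genes higher and 3.81% lower. Of the brighter genes 6.24% were called higher and 6.26% lower. The batch-term fit was taken up with its counts over all genes already known, and a batch term with a constant prior called 0 members, so its p-values carry less weight than those of the planned test. The words rose and fell below refer to the batch-term fit, and standard errors are from it unless the planned fit is named. Without any 1 of the 6 arrays the batch-term fit called between 3 and 14 members. Tcirg1, Atp6v0a1 and Atp6v0d2 were called in 6 of these 6 fits, Atp6v1a in 5 and Atp6v1e1 in 3. Atp6ap1, Atp6v0d1, Atp6v1g1, Atp6v1h and Clcn7 were called in 2, those without a replicate 3 array.

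By values alone, 28 of 35 members were higher in low sodium and 7 were lower. The 3 low-sodium arrays lay above the 3 normal-sodium arrays without overlap for 11 members, and below them for 0, where 8.43% of all genes and 11.0% of the brighter genes were higher without overlap and 9.07% and 12.6% were lower. A difference above 0 in each of the 3 replicate numbers was found for 18 members, where 20.0% of all and 24.0% of the brighter genes had one. Atp6v0a2 and Clcn6 were the 2 members below 0 in each number, where 20.7% of all and 26.7% of the brighter genes were. The median log2 difference of the 35 members was 0.23, beside -0.01 over all genes. A higher RNA level per cell and more cells that express a gene cannot be told apart in these bulk cultures, nor can a lower level and fewer such cells.

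**Figure D1:**
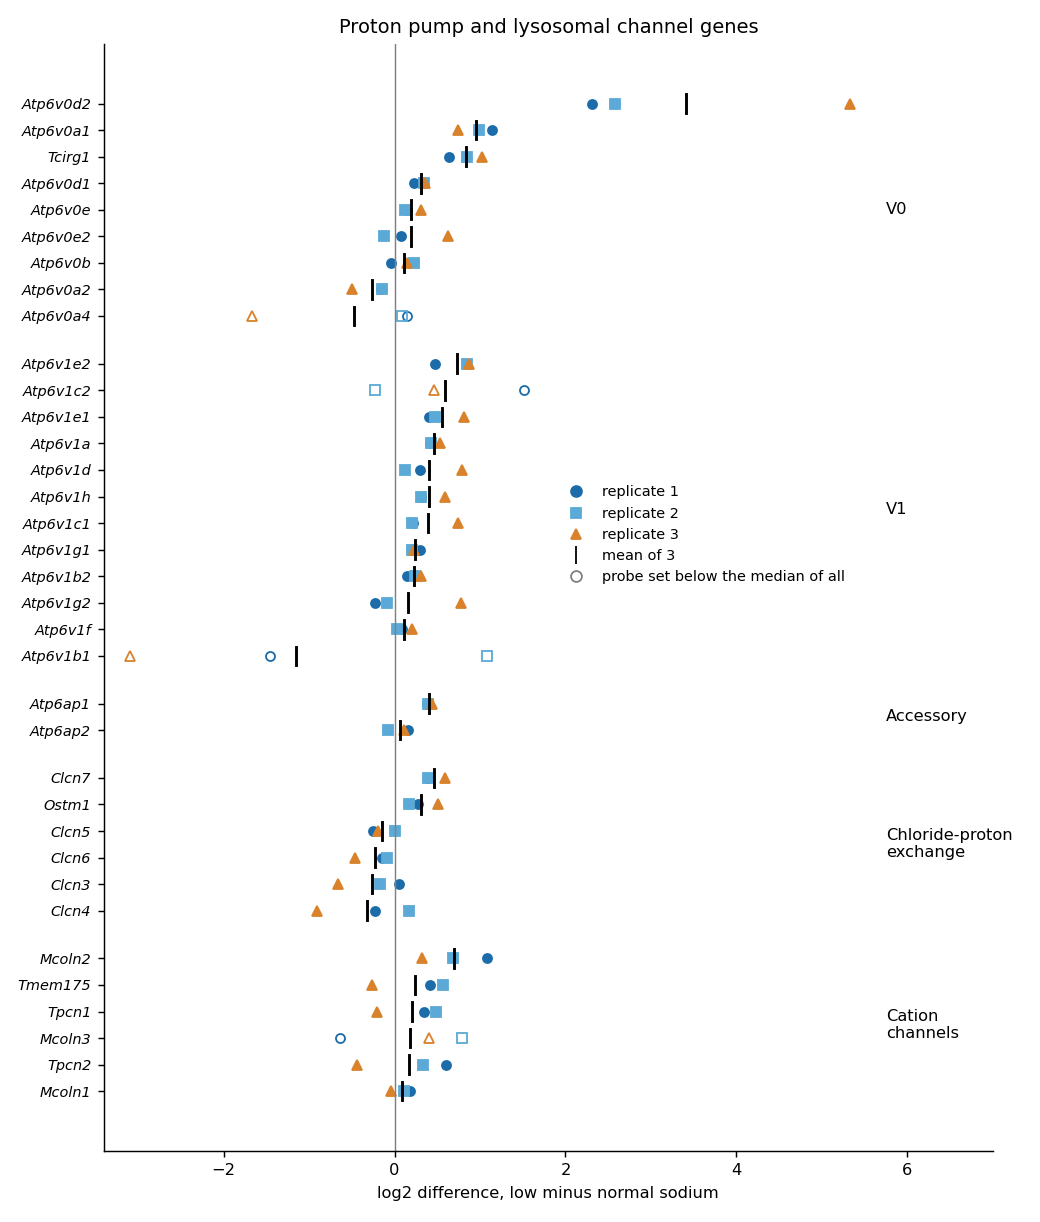
Log2 difference between low and normal sodium (x axis) for each of the 35 members (rows), with blue circles, light blue squares and orange triangles for replicates 1, 2 and 3, a black bar for the mean of the 3, and open symbols for the 4 probe sets below the median of all probe sets. Atp6v0d2 lies furthest to the right at 3.41, 9 of 12 V1 subunits lie to the right of 0 in every replicate, and Clcn3, Clcn4 and Clcn6 have means of -0.23 to -0.32.

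The d subunit of V0 joins the turning shaft of V1 to the proton-carrying ring. Atp6v0d2, which encodes the d2 isoform and is needed in mice for fusion of osteoclast precursors, read 10.68, 10.82 and 12.59 on the log2 scale in low-sodium replicates 1, 2 and 3, and 8.37, 8.24 and 7.25 in normal-sodium replicates 1, 2 and 3. All low-sodium arrays were above all normal-sodium arrays, and replicate 3 had the highest low-sodium and the lowest normal-sodium value. Atp6v0d2 rose 10.6-fold (log2 difference 3.41 ± 0.51, SE, adjusted p = 0.00926), but did not pass the planned limma test (adjusted p = 0.369). The difference was 2.31 in replicate 1, 2.58 in replicate 2 and 5.33 in replicate 3. Its second probe set gave 3.29, with 10.47, 10.53 and 12.68 in low sodium and 8.03, 8.14 and 7.62 in normal sodium.

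Other osteoclast genes differed in how they read on the replicate 3 arrays. Ctsk, the main collagen-cutting cathepsin of osteoclasts, read 11.16, 11.06 and 8.46 in low and 9.64, 9.59 and 8.03 in normal sodium, so that its replicate 3 values were the lowest of each medium. Dcstamp, a fusion receptor, read 10.53, 10.45 and 8.87 in low and 9.02, 8.63 and 7.62 in normal sodium. Acp5, the tartrate-resistant phosphatase, read 7.50, 7.31 and 7.95 in low and 7.58, 7.31 and 5.78 in normal sodium, and like Atp6v0d2 was highest in low and lowest in normal sodium on replicate 3. Of the 9 osteoclast markers 4 (Ctsk, Dcstamp, Ocstamp and Mmp9) rose and 0 fell, and 0 passed the planned test. Of all genes 3.78% were called higher, and of the brighter genes 6.24%. The groups overlapped for each of the 4 that rose. Nfatc1, Itgb3 and Oscar had differences of -0.23, -0.23 and -0.17, the last 2 of them below 0 in each replicate number, and did not pass. Their part in the pump values was not tested.

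Atp6v0d1, the d isoform found in most tissues, read 12.42, 12.42 and 12.96 in low and 12.19, 12.08 and 12.60 in normal sodium. Low was above normal within each replicate number (0.23, 0.34 and 0.36), although the groups overlapped because both replicate 3 arrays were high. It rose by 0.31 ± 0.06 (adjusted p = 0.0285), against an adjusted p of 0.812 in the planned limma test. Within each array the d2 probe set was set against the d1 probe set, and the change in that difference between the media was 3.10 on the log2 scale (2.08, 2.24 and 4.97 by replicate number). The exact two-sided permutation p was 0.1, the smallest that 3 against 3 arrays can give, and 0.2 after adjustment over the 2 such pairs. The within-array difference was -1.74, -1.60 and -0.37 in low and -3.82, -3.84 and -5.35 in normal sodium, so the groups did not overlap.

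The a subunit of V0 forms the path of the protons and directs the pump to its membrane. Tcirg1, whose a3 product is the osteoclast form and whose loss causes osteopetrosis in mice and humans, read 12.33, 12.44 and 12.69 in low and 11.69, 11.60 and 11.66 in normal sodium. The groups were separate, with an SD of 0.18 in low and 0.05 in normal sodium (n = 3 arrays each). Tcirg1 rose 1.79-fold (0.84 ± 0.08, adjusted p = 0.00262), with an adjusted p of 0.385 in the planned limma test. The differences were 0.64, 0.85 and 1.03 by replicate number.

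Atp6v0a1, the a1 isoform common to many cells and abundant in neurons, read 10.69, 10.75 and 10.22 in low and 9.55, 9.76 and 9.48 in normal sodium. The groups did not overlap, and the difference was 1.14, 0.99 and 0.74 by replicate number. It rose 1.94-fold (0.96 ± 0.11, adjusted p = 0.0037), and its planned adjusted p in limma was 0.399. Atp6v0a2, the a2 isoform of Golgi and endosomes, read 9.14, 8.98 and 9.03 in low and 9.29, 9.13 and 9.53 in normal sodium. It was lower in low sodium in each replicate number (-0.15, -0.15 and -0.49), but the groups overlapped and it did not pass (-0.26 ± 0.13, adjusted p = 0.28). Atp6v0a4, the kidney a4 isoform, was too dim to be read as a level (4.58 in low, 5.06 in normal sodium).

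Tcirg1 and Atp6v0a1 were set against each other in the same way. The within-array difference between Tcirg1 and Atp6v0a1 averaged 1.93 ± 0.46 in low and 2.05 ± 0.19 in normal sodium (SD, n = 3 arrays each), a change of -0.12 with an exact two-sided permutation p of 0.8 (also 0.8 adjusted over the 2 pairs). The change was -0.51, -0.14 and 0.29 by replicate number and turned to 0.021 with the mean of all probe sets of each gene, so its direction was not settled. The miss of the threshold does not show that the 2 genes changed equally.

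**Figure D2:**
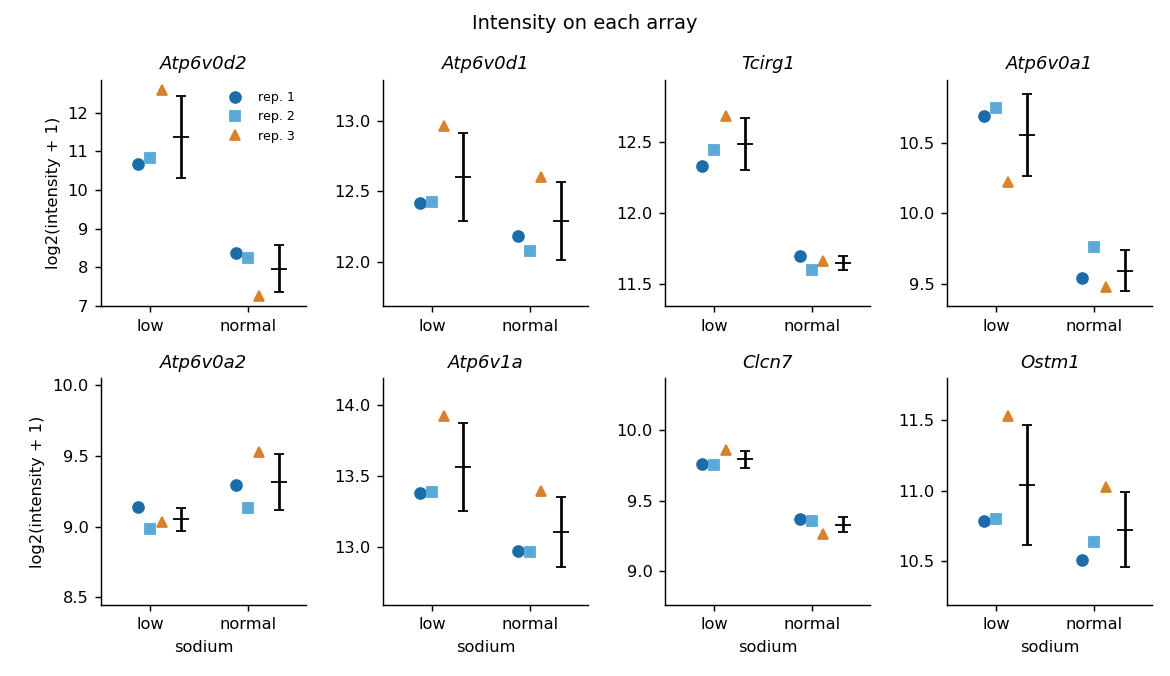
Log2(intensity + 1) on each array (y axis, own scale in each panel) in low sodium (left) and normal sodium (right) for 8 members, with symbols for replicates 1 to 3 and the mean ± SD of 3 arrays in black. Atp6v0d2, Tcirg1, Atp6v0a1 and Clcn7 have separate groups, whereas Atp6v0d1, Atp6v1a and Ostm1 overlap because both replicate 3 arrays (triangles) are high, and Atp6v0a2 overlaps with lower low-sodium values.

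The other V0 genes had small differences. Atp6v0b, which encodes the c″ member of the ring, differed by 0.11 ± 0.07, and the small e subunit gene Atp6v0e by 0.19 ± 0.07 (adjusted p = 0.437 and 0.135), neither of which passed. Atp6v0e2, an isoform known from brain, differed by 0.19 ± 0.14 and was higher in replicates 1 and 3 and lower in replicate 2. Of the 9 V0 genes 4 rose, 0 fell and 5 did not pass, with 3 separate between the media. Of all genes 3.78% were called higher and 8.43% were higher without overlap, and of the brighter genes 6.24% and 11.0%.

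Of 12 measured V1 genes 4 rose, 0 fell and 8 did not pass, 9 were higher in each replicate number and 5 were separate between the media. Of all genes 3.78% were called higher, 20.0% were higher in each number and 8.43% were higher without overlap. Of the brighter genes these shares were 6.24%, 24.0% and 11.0%. Atp6v1a, the catalytic A subunit that splits ATP, read 13.38, 13.39 and 13.92 in low and 12.97, 12.96 and 13.39 in normal sodium. The groups met at 1 value, normal-sodium replicate 3, yet the difference was 0.41, 0.43 and 0.53 by replicate number. Atp6v1a rose by 0.46 ± 0.06 (adjusted p = 0.0057), with an adjusted p of 0.699 in the planned limma test.

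Atp6v1e1, a subunit of the outer stalks that hold V1 still, read 12.29, 12.38 and 12.55 in low and 11.89, 11.91 and 11.74 in normal sodium. These groups were separate, and it rose by 0.56 ± 0.09 (adjusted p = 0.0124), against an adjusted p of 0.533 in the planned limma test. Atp6v1h, which regulates ATP splitting, read 11.57, 11.58 and 11.77 in low and 11.26, 11.27 and 11.18 in normal sodium. It was separate too and rose by 0.40 ± 0.08 (adjusted p = 0.0252). Atp6v1g1, the partner of the E subunit in the stalks, rose by 0.24 ± 0.06 with overlapping groups and lay at the threshold (adjusted p = 0.0496).

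Another 3 V1 genes had separate groups without passing the batch-term fit. Atp6v1c1, whose C subunit ties the stalks of V1 to V0 and is abundant in osteoclasts, read 13.48, 13.45 and 14.07 in low and 13.26, 13.25 and 13.32 in normal sodium (0.39 ± 0.11, adjusted p = 0.0752). Atp6v1d, part of the central rotor, read 11.13, 11.10 and 11.89 in low and 10.83, 10.98 and 11.10 in normal sodium (0.41 ± 0.12, adjusted p = 0.1). Both had a larger difference in replicate 3, at 0.75 and 0.80, than in replicates 1 and 2, at 0.12 to 0.30. Atp6v1b2, the nucleotide-binding B isoform of most tissues, read 12.82, 12.80 and 12.70 in low and 12.67, 12.56 and 12.39 in normal sodium (0.23 ± 0.06, adjusted p = 0.0778).

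Of the remaining V1 genes, the rotor subunit gene Atp6v1f differed by 0.11 ± 0.06. The testis isoform gene Atp6v1e2 was higher in each replicate number (0.48, 0.85 and 0.87) but noisy (0.73 ± 0.30, adjusted p = 0.215), and the brain isoform gene Atp6v1g2 differed by 0.15 ± 0.33. Atp6v1b1 and Atp6v1c2, known from kidney, were below the median of all probe sets with differences of -1.16 ± 0.85 and 0.59 ± 0.66, which cannot be read as changes in level. None of these 5 passed.

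Of the 2 accessory protein genes 1 rose. Atp6ap1, which encodes a subunit that helps to assemble and target the pump, read 12.71, 12.77 and 12.65 in low and 12.34, 12.37 and 12.22 in normal sodium. The groups were separate, the difference was 0.37, 0.39 and 0.43 by replicate number, and the gene rose by 0.40 ± 0.06 (adjusted p = 0.0093; planned limma adjusted p = 0.612). Atp6ap2, which encodes the prorenin receptor, differed by 0.06 ± 0.07 (adjusted p = 0.665), with 0.15, -0.08 and 0.11 by replicate number.

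Of the 6 exchanger genes, Ostm1 included, Clcn7 rose and the other 5 did not pass. This count is too small to set the class apart from the 6.24% of brighter genes called higher. Clcn7, the lysosomal and ruffled-border exchanger, read 9.76, 9.75 and 9.86 in low and 9.37, 9.36 and 9.27 in normal sodium. The groups were separate with an SD of 0.06 in low and 0.05 in normal sodium (n = 3 arrays each), and it rose by 0.46 ± 0.10 (adjusted p = 0.031), against an adjusted p of 0.563 in the planned limma test. Ostm1, the β subunit that Clcn7 needs for stability, read 10.79, 10.80 and 11.53 in low and 10.51, 10.64 and 11.02 in normal sodium. It was higher in each replicate number (0.27, 0.16 and 0.51) with overlapping groups and did not pass (0.31 ± 0.09, adjusted p = 0.079).

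The other exchangers had means below 0. Clcn3 differed by -0.26 ± 0.13, Clcn4 by -0.32 ± 0.19 and Clcn6, of late endosomes, by -0.23 ± 0.15, and none passed (adjusted p = 0.316, 0.384 and 0.439). Most of the shift of Clcn3 and Clcn4 lay in replicate 3, at -0.66 and -0.91, whereas replicates 1 and 2 gave -0.23 to 0.17. Clcn5, an endosomal exchanger known from kidney, differed by -0.15 ± 0.09 on the probe set used and by 0.47 on the next brightest one, so its direction was not settled. A difference between Clcn7 and these genes in their response was not tested.

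None of the 6 cation channels passed, and for Mcoln1, Tpcn1, Tpcn2 and Tmem175 replicate 3 went against replicates 1 and 2 on the probe sets used. The next brightest probe set of Tpcn1 had the same pattern (0.12, 0.39 and -0.33 by replicate number). That of Mcoln1 was higher in each number (0.06, 0.18 and 0.21), and that of Tmem175 had the signs reversed (-0.07, -0.15 and 0.33). Mcoln2, a TRPML channel inducible in macrophages, read 9.12, 9.06 and 8.64 in low and 8.04, 8.38 and 8.32 in normal sodium. The groups were separate, and the difference was 1.08, 0.68 and 0.32 by replicate number. It did not pass (0.69 ± 0.17, adjusted p = 0.053). Mcoln1, the calcium-releasing TRPML channel of lysosomes, read 10.20, 10.21 and 10.23 in low and 10.02, 10.10 and 10.27 in normal sodium and differed by 0.08 ± 0.09.

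Tpcn2, a two-pore channel, read 8.30, 8.06 and 7.77 in low and 7.70, 7.73 and 8.21 in normal sodium, with differences of 0.61, 0.33 and -0.43 by replicate number. Tmem175, the lysosomal potassium and proton channel, read 8.92, 8.82 and 8.64 in low and 8.51, 8.25 and 8.90 in normal sodium, with differences of 0.41, 0.57 and -0.26. Tpcn1 had differences of 0.34, 0.49 and -0.21. With a trended prior and without replicate 3, Tpcn1 was called (0.42, adjusted p = 0.00573), in replicate 3 it was lower in low sodium, and the batch-term fit did not call it (adjusted p = 0.425). The same fit without replicate 3 also called Mcoln2 (0.88, adjusted p = 0.00726), Atp6v1c1 (0.21, adjusted p = 0.011) and Atp6v1b2 (0.19, adjusted p = 0.0397), whose differences in replicate 3 had the same sign. Mcoln3 was below the median of all probe sets (5.60 in low, 5.41 in normal sodium). Among the cation channels the groups overlapped for all but Mcoln2.

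By class of gene, medians of the log2 differences are given as descriptions without a test. The median was 0.40 over the 12 V1 genes and 0.19 over the 9 V0 genes, with 0.30, 0.22 and 0.56 for V1 and 0.15, 0.22 and 0.36 for V0 by replicate number. The 2 osteoclast isoforms had differences of 3.41 and 0.84, and the 15 ubiquitous subunits, accessory proteins among them, had a median of 0.31 and a range of -0.26 to 0.96. Of these 15 genes, all among the brighter genes, 7 rose and 0 fell, where 6.24% of the brighter genes were called higher. In each replicate number 12 were higher, where 24.0% of the brighter genes were, and Atp6v0a2 was the 1 member with a negative mean. Of 6 isoforms known mainly from other tissues 0 rose and 0 fell, too few genes to set apart from the 3.78% of all genes called higher. Their median was 0.17, and 3 of them were below the median of all probe sets. The 6 genes of the exchanger class had a median of -0.19 and the 6 cation channels one of 0.20. By replicate number these were -0.04, 0.08 and -0.33 for exchangers and 0.38, 0.53 and -0.12 for channels.

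**Figure D3:**
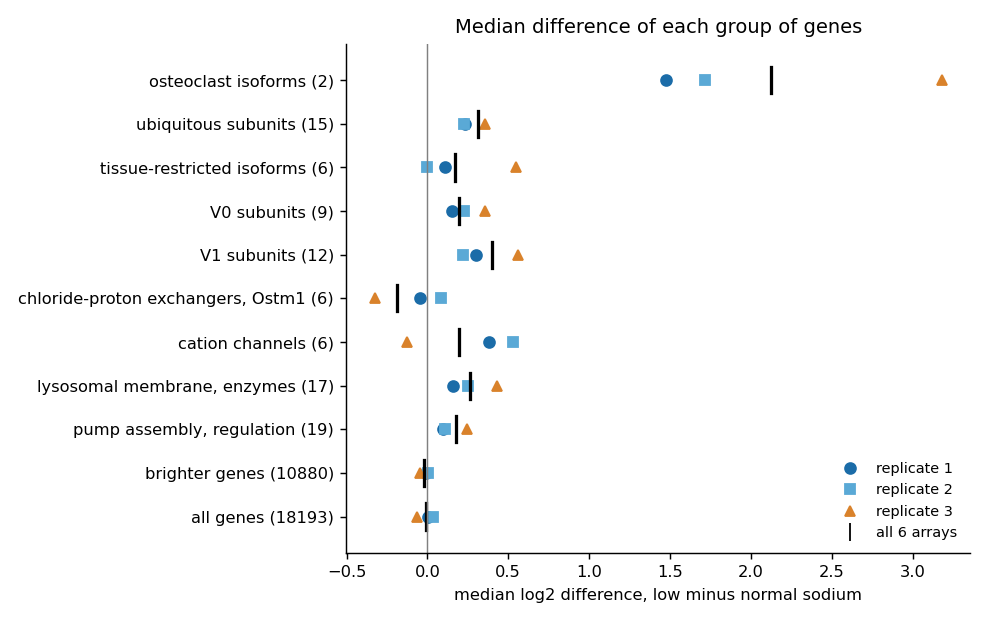
Median log2 difference between low and normal sodium (x axis) for classes of members, 2 lists of other lysosomal genes and all genes (rows, number of genes in brackets), with symbols for replicates 1 to 3 and a black bar for all 6 arrays. The V0, V1 and ubiquitous classes are above 0 in each replicate, the cation channels are above 0 in replicates 1 and 2 and at -0.12 in replicate 3, and all genes together lie between -0.06 and 0.03.

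**Figure D4:**
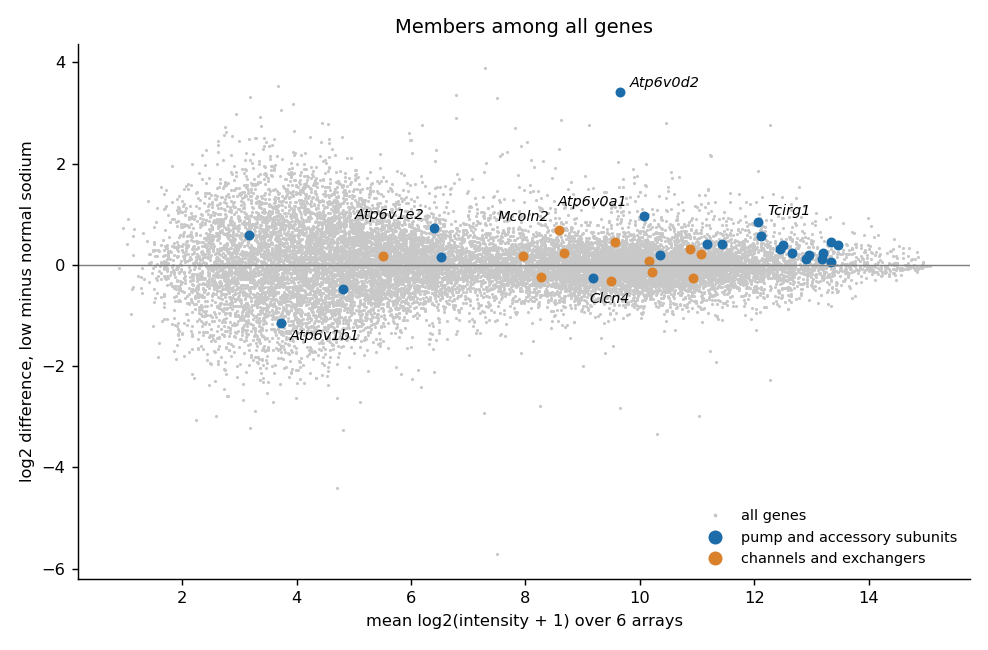
Log2 difference between low and normal sodium (y axis) against the mean log2(intensity + 1) over 6 arrays (x axis) for all 18193 genes (grey), pump and accessory subunits (blue) and channels and exchangers (orange). Atp6v0d2 lies at 3.41, below the highest of all genes at 3.88, most other pump genes lie slightly above 0 among the brighter genes, and the spread of all genes widens at low intensity, where Atp6v1b1 lies.

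Other probe sets of the same genes were compared as a technical check. A total of 77 probe sets were assigned to single members, and 37 probe sets other than those used reached the median over all probe sets. Of these 30 had the sign of the probe set used and 7 the opposite sign, and in 14 of 20 members with such a probe set all had the same sign. For Atp6v0a1 the 3 others gave 1.02, 1.35 and -0.06. The second Atp6v1a probe set gave 0.54, the others of Atp6v1c1 0.54 and 0.45, and those of Atp6v1d 0.46 and 0.64. Those of Clcn7 gave 0.26 and -0.01, and those of Clcn3 were all negative, between -0.16 and -0.49. For Atp6v0a2 they gave 0.01 and -0.05, so its lower value rests on 1 probe set.

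**Figure D5:**
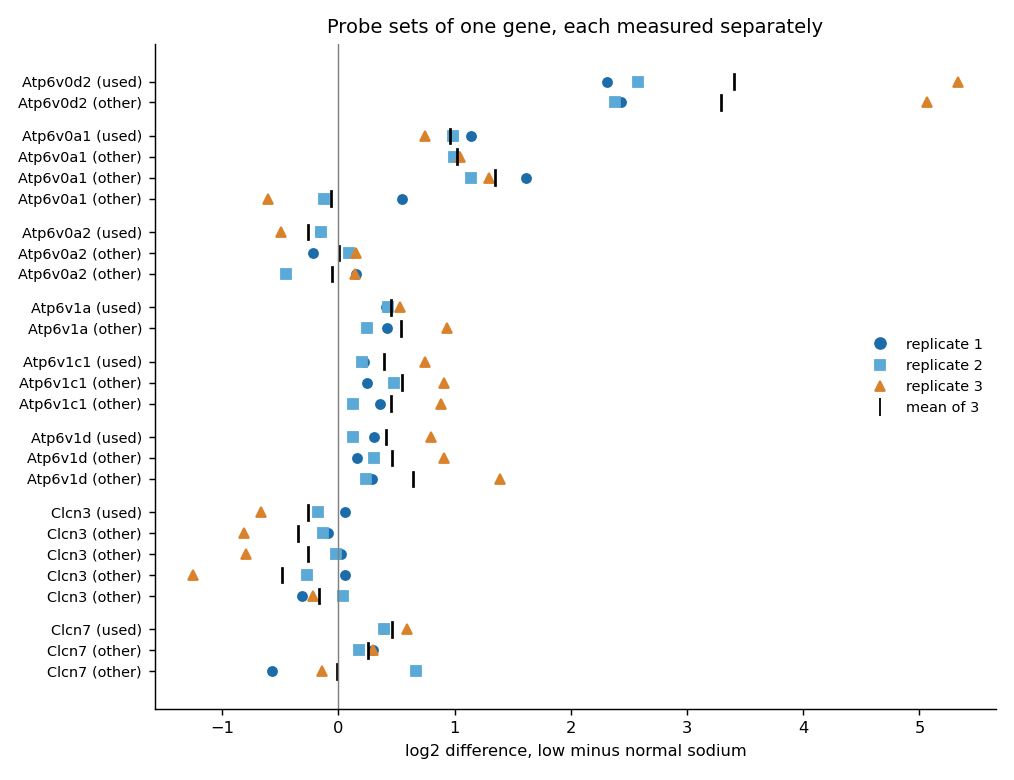
Log2 difference between low and normal sodium (x axis) for each probe set (rows) of 8 members that reached the median over all probe sets, the probe set used first, with symbols for replicates 1 to 3 and a black bar for their mean. Both Atp6v0d2 probe sets lie above 3 on average, those of Atp6v1a, Atp6v1c1 and Atp6v1d lie to the right of 0 in each replicate, and 1 Atp6v0a1 and 1 Clcn7 probe set lie near 0.

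Promoter sequences were examined because many lysosomal genes, pump genes among them, are known targets of TFEB, TFE3 and MITF, which bind the letters CACGTG. The windows were 250 bases before to 50 bases after each start in RefSeq (GRCm38.p6), on both strands, and 28 of 35 members had at least 1 window. The motif CACGTG was in a window of 9 of these 28 genes (32.1%), against 8.09% of 27025 genes with windows. The longer TCACGTG, which contains it, was in 8 of 28 members and 4.29% of genes. Among the 7 members with a window that rose, 3 held CACGTG, namely Atp6v0d1, Atp6v1a and Clcn7. The other 6 genes with it were Atp6v0b, Atp6v0e, Clcn4, Clcn6, Mcoln1 and Mcoln2, which did not pass the batch-term fit. The AP-1 letters TGANTCA were in 1 member (8.97% of genes) and GGAAA, the core of NFAT sites, in 16 (64.4% of genes). Among the 7 members with a window that rose, TGANTCA was in 1, Atp6v0a1, and GGAAA was in 7. A difference from the other members was not tested. A match is a description of these letters, and no match says only that they are not in this window.

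Promoters of 6 members are shown, each as the 250 bases before the start, 5′ to 3′ on the strand of the gene, with CACGTG in capitals. The first pair are of V0 genes that rose and hold no CACGTG, the second pair are of genes that rose and hold it, and the third pair are of genes that hold it and did not pass. Atp6v1a has it 131 bases before the start, Clcn7 has it 15 bases before and again past the start, Atp6v0b has it 36 and 18 bases before and Mcoln1 71 and 45 bases before. The windows are at chr19:3907134-3907383 (Tcirg1, minus strand, 1 of 3 starts), chr11:101010148-101010397 (Atp6v0a1, plus), chr16:44139260-44139509 (Atp6v1a, minus), chr17:25133141-25133390 (Clcn7, plus, 1 of 2 starts), chr4:117887330-117887579 (Atp6v0b, minus) and chr8:3500269-3500518 (Mcoln1, plus).
Tcirg1: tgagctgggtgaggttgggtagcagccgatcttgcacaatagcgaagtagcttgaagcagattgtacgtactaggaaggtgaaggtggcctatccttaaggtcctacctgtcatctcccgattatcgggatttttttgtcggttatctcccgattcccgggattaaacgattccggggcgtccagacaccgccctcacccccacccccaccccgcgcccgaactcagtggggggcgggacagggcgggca
Atp6v0a1: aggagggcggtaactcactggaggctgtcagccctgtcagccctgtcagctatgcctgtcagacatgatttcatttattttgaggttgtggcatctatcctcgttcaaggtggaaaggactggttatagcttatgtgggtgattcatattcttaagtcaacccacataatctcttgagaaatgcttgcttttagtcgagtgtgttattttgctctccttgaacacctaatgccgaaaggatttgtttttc
Atp6v1a: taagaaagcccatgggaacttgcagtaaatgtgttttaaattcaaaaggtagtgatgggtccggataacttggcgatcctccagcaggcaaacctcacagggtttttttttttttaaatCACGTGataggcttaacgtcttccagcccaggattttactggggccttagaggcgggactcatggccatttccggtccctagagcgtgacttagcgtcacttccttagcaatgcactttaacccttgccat
Clcn7: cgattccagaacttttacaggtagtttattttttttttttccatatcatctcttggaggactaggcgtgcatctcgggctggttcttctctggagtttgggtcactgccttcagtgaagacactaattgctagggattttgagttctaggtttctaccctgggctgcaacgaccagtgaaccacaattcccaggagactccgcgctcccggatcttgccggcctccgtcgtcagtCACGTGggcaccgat
Atp6v0b: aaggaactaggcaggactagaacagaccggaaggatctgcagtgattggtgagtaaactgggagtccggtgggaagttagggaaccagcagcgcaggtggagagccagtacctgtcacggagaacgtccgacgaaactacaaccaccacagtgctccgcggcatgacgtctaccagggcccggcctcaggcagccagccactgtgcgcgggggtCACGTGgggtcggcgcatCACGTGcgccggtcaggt
Mcoln1: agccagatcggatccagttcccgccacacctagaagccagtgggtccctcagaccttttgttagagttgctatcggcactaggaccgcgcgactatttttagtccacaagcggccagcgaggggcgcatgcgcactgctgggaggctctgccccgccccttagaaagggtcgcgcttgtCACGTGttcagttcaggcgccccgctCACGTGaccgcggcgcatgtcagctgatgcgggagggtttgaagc
CACGTG was in windows of genes that rose and of genes that did not pass. Tcirg1 and Atp6v0a1 had none in their windows, and Atp6v0d2, with the largest difference, had no window. A part of these letters in the differences was not tested.

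The factors known to bind those letters were measured on the same arrays. Mitf, which acts with PU.1 in osteoclasts, read 11.70, 11.68 and 11.90 in low and 11.35, 11.12 and 11.03 in normal sodium. The groups were separate and Mitf rose by 0.59 ± 0.11 (adjusted p = 0.0189; planned limma adjusted p = 0.536). Tfec, a relative of Mitf in macrophages, went the other way, with 8.25, 8.25 and 8.25 in low and 8.50, 8.62 and 8.43 in normal sodium. Its groups were separate too, but it did not pass (-0.27 ± 0.13, adjusted p = 0.312). Tfeb and Tfe3 differed by 0.05 and -0.21 and did not pass.

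Of 19 genes that assemble or regulate the pump, all among the brighter genes, 2 rose, 0 fell and 17 did not pass, where 6.24% of the brighter genes were called higher. This count is too small to set the list apart from that share, and the list median was 0.18. Vma21, a chaperone that assembles V0 in the endoplasmic reticulum, read 12.27, 12.17 and 12.13 in low and 11.51, 11.39 and 11.01 in normal sodium. It rose 1.85-fold with separate groups (0.89 ± 0.09, adjusted p = 0.00298; planned limma adjusted p = 0.399). Wdr7, a partner of the complex that rejoins V1 to V0, read 10.81, 10.77 and 11.28 in low and 10.22, 9.99 and 10.27 in normal sodium. It rose 1.73-fold (0.79 ± 0.10, adjusted p = 0.00588; planned limma adjusted p = 0.482). The Ragulator genes Lamtor1 to Lamtor5, which tie the pump to mTORC1, differed by -0.09 to 0.18 and did not pass.

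Among 17 lysosomal membrane and enzyme genes, all among the brighter genes, 7 rose, 0 fell and 10 did not pass, with a median of 0.26. In the planned limma test 0 of the 17 passed. Of the brighter genes 6.24% were called higher. In each replicate number 16 of the 17 were higher, where 24.0% of the brighter genes were. Of 8 genes of lysosomal lipid signalling and trafficking 1 rose and 0 fell, a count too small to set the list apart from that 6.24%. The gene that rose was Snx10, a sorting nexin whose loss causes osteopetrosis, at 0.34 ± 0.07 (adjusted p = 0.025; planned limma adjusted p = 0.659). Where 3.81% of all genes were called lower, 0 of 5 acid secretion partners rose and 1 fell, too few to compare with that share. This was Car2, the carbonic anhydrase that feeds protons to the pump, which read 9.14, 9.01 and 10.47 in low and 12.49, 12.59 and 12.51 in normal sodium (difference -2.99 ± 0.26, adjusted p = 0.00141; planned limma adjusted p = 0.3). Car2 was lower in each replicate number and its groups were separate.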

How the data were processed

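RNA from 6 RAW264.7 cultures was labelled with biotin for Affymetrix arrays, per the labels' protocols. The deposited values are intensities on a linear scale. The submitters' processing notes name the tool Partek. The trimmed mean intensity of each array was 500.003. No source used here states how probes were summarised. The analysis used log2(intensity + 1). The number of arrays limits the precision. The 64 control probe sets were left out. Of 45037 probe sets 34945 had 1 gene, 932 several and 9160 none. Low and normal sodium were compared over 18193 genes with limma 3.58.1 in R 4.3.3 (two-sided, Benjamini-Hochberg over all genes, threshold 0.05), with a batch-term fit (replicate 3 against replicates 1 and 2, trended prior) as an alternative. P-values of the planned fit measure the spread between these cultures. Those of the batch-term fit leave out the spread between replicate 3 and replicates 1 and 2. For Atp6v0d1 the SE was 0.25 in the planned fit and 0.06 in the batch-term fit. Scripts were tested on simulated data. Members and lists were chosen with earlier results of these data known. Every member is named, and values by array are given for 10 genes fixed by name, for members with separate groups and for the 6 with the smallest p. Atp6v1a and the genes of other lists shown by array were chosen after their values were seen.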

Additional observations from a re-analysis of the deposited data

How the results depend on the processing

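Of 35 members 28 kept the sign of their difference under each alternative run for them and 7 did not (24 alternatives, or 23 for Atp6v0a4, Atp6v1b1, Atp6v1c2 and Mcoln3, which the filter on dim probe sets removes), and 0 of the 7 passed in any fit. The planned test called 1 gene and 0 members. Over all genes the count was 4 with a pseudocount of 16, 11 with the filter on dim probe sets, 40 with a trended prior, 2 with a batch term and constant prior, 1382 with the batch-term fit, 2705 with a trended prior and no replicate 3 arrays, and 0 with quantile normalisation, median centring, all probe sets or replicates 1 and 2 alone. It ran from 0 to 2682 when each array was left out, in the planned fit (0 to 3) or, chosen after seeing the data, in the batch-term fit (418, 373 and 2682 without low-sodium replicate 1, 2 or 3, and 463, 394 and 2663 without normal-sodium replicate 1, 2 or 3). Members called numbered 10 in the batch-term fit, 14 with a trended prior and no replicate 3 arrays, and 0 to 14 when each array was left out. The batch-term fit called 5 and 3 members without low-sodium replicate 1 or 2, 4 and 4 without normal-sodium replicate 1 or 2, and 14 without either replicate 3 array, where it rests on replicates 1 and 2. With the replicate block 0 genes and 0 members were called, and the paralog changes of 3.10 and -0.12 had exact sign-flip p of 0.25 (the smallest possible) and 0.75. Over all genes, deviations of same-numbered arrays from their group means correlated at 0.10, 0.08 and 0.24. Replicate 1 of a medium and replicate 2 of the other correlated at 0.090 and 0.095. Replicate 3 of a medium correlated with replicates 1 and 2 of the other at -0.16 to -0.13. The 2 replicate 3 arrays thus went together, and the pairing of numbers 1 and 2 was not settled.

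Class medians in replicates 1 and 2 alone were 0.23 for V1, 1.59 for osteoclast isoforms, 0.21 for ubiquitous subunits and 0.44 for cation channels. The ubiquitous median was 0.19 with the mean of all probe sets. With each array left out, medians ran from 0.23 to 0.47 for V1, 1.59 to 2.33 for osteoclast isoforms, 0.21 to 0.40 for ubiquitous subunits, 0.09 to 0.44 for cation channels, -0.11 to 0.37 for tissue-restricted isoforms and -0.31 to 0.0044 for exchangers, so the last 2 have no settled direction. The change of Tcirg1 against Atp6v0a1 was 0.021 with the mean of all probe sets, 0.29 within replicate 3 and -0.39 to 0.028 with each array left out.

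Signs turned for dim or small differences, and the cause was not tested. In replicates 1 and 2 alone Atp6v0a4 gave 0.12, Atp6v0e2 -0.027 and Atp6v1g2 -0.16. With the mean of all probe sets Clcn5 gave 0.15. With 1 array left out the difference ran from -0.026 to 0.13 for Atp6ap2, -1.15 to 0.42 for Atp6v0a4, -0.027 to 0.31 for Atp6v0e2, -0.10 to 0.27 for Atp6v1f, -0.33 to 0.47 for Atp6v1g2, -0.45 to 0.18 for Clcn5 and -0.023 to 0.48 for Mcoln3 (-0.0084 in the batch-term fit without normal-sodium replicate 2).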
